A study of Homo sapiens with 18 samples.

Results

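HOX genes encode homeodomain transcription factors that stand in 4 clusters in the human genome. Here they were taken as the protein-coding genes of the RefSeq table whose symbol is HOXA, HOXB, HOXC or HOXD followed by a number. The rule found 39 of 19974 protein-coding genes on chromosomes 1 to 22 and X: 11 HOXA, 10 HOXB, 9 HOXC and 9 HOXD genes. A gene was counted as having a MAX peak when a peak summit lay inside it or within 2500 bp of one of its outer ends. Neighbouring HOX genes stand so close that their windows overlap and several genes can share a peak, so the genes are not independent of each other. Genes of the same number in different clusters are paralogues, descended from 1 ancestral gene.

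HOX proteins set the identity of body segments along the head to tail axis. Genes of low number are used towards the head and genes of high number towards the tail and the ends of the limbs, in the order in which they lie on the chromosome. In differentiated cells each cluster is usually split into a part held silent by Polycomb proteins and a part kept open by Trithorax (MLL) proteins, and the border between them reflects where in the body a cell came from. Many of the proteins bind DNA together with cofactors of the TALE homeodomain class such as PBX and MEIS. MAX is the obligate DNA-binding partner of the transcription factor MYC, and MYC-MAX dimers prefer the canonical E-box CACGTG.

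The series mapped MAX by chromatin immunoprecipitation with a reference exogenous genome (ChIP-Rx) in U2OS, a human osteosarcoma line. The endogenous MYC gene was knocked out, and every line carried a doxycycline-inducible (Tet-On) MYC, either the mutant named 3A, the mutant named 7A or the wild type (WT); the labels do not say which residues the names stand for. Cells of each form received 1 µg/ml doxycycline (Dox) for 24 h or PBS for 24 h, and 10% NIH3T3 cells, a mouse fibroblast line, were mixed in. The labels give 18 libraries, made up of 12 MAX immunoprecipitations in 6 groups of 2 and 6 inputs. Titles and antibody entries name MAX, although the sample protocols describe an anti-FLAG antibody, and the titles were followed.

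The values below come from 3 deposited peak lists, 1 per MYC form, with 27294 peaks for 3A, 25159 for 7A and 34622 for WT. No list separates Dox from PBS or one replicate from the other, so no difference between MYC forms could be tested and every comparison sets single lists side by side. The lists hold no expression values, so the level of MYC and the identity of the line were not checked here, and the depth of the libraries is unknown. The fold enrichment of a peak is the authors' own value at its summit. It is used with its rank percentile within its own list, where 100 is the strongest peak; since the lists differ in length, a higher or lower percentile shows no change in binding.

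MAX peaks were present in all 4 HOX clusters in every list. In the 3A list 29 of the 39 HOX genes had a peak (74.4%, 95% Clopper-Pearson interval 57.9 to 87.0), against 67.7% of all protein-coding genes. In the 7A list 26 had one (66.7%, 49.8 to 80.9), against 66.7%. In the WT list 29 had one (74.4%, 57.9 to 87.0), against 70.8%. These shares lie near the background in each list. The intervals cover counting error only, and sharing of peaks between neighbours makes them too narrow.

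HOX genes are short, which leaves less room for a summit: the median span was 3785 bp for the HOX genes and 24170.5 bp for all protein-coding genes. Among genes of at most 10000 bp, 24 of 33 HOX genes had a peak in the 3A list (72.7%), 21 in the 7A list (63.6%) and 24 in the WT list (72.7%). The background among 5658 genes of that length was 46.2% in the 3A list, 45.1% in the 7A list and 48.8% in the WT list. Per 100 kb of window, the HOX genes held 7.81 peaks in the 3A list, 6.80 in the 7A list and 9.07 in the WT list. All protein-coding windows held 1.45, 1.35 and 1.73 peaks per 100 kb in the same lists, but most of that length is the inside of long genes.

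**Figure D1:**
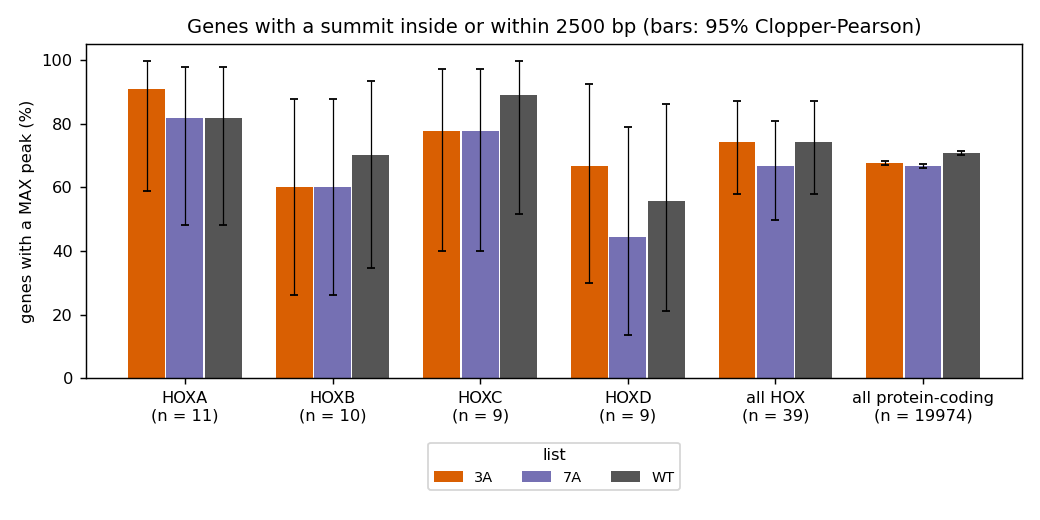
Share of genes with a MAX summit in the gene or within 2500 bp, in percent, for each HOX cluster, all 39 HOX genes and all 19974 protein-coding genes; bars are the 3A, 7A and WT lists and lines are 95% Clopper-Pearson intervals for counting error. The intervals of every cluster hold the background share of its list.

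Most peaks at HOX genes stood in the lower part of their list. The windows held 31 peaks in the 3A list, 27 in the 7A list and 36 in the WT list. Their median fold enrichment was 8.30 in the 3A list, 8.89 in the 7A list and 7.67 in the WT list, against 11.0, 11.1 and 10.7 for the whole lists in the same order. The median rank percentile of the HOX peaks was 30.2 in the 3A list (95% interval of the median 11.8 to 60.6), 35.1 in the 7A list (16.5 to 55.0) and 30.3 in the WT list (22.9 to 56.7). Peaks in all protein-coding windows had median percentiles of 54.2, 54.5 and 55.7. Above the middle of their own list stood 10 of 31 HOX peaks for 3A, 10 of 27 for 7A and 14 of 36 for WT. In the strongest 10% of their list stood 0 HOX peaks for 3A, 2 for 7A and 2 for WT.

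HOX peaks were about as wide as other peaks of their list. Their median width was 607 bp in the 3A list, 709 bp in the 7A list and 630.5 bp in the WT list, against 664, 763 and 672 bp for peaks in all protein-coding windows. Peaks of at least 1000 bp numbered 7 of 31 in the 3A list (22.6%), 8 of 27 in the 7A list (29.6%) and 9 of 36 in the WT list (25.0%). Among peaks in all protein-coding windows the shares were 25.3%, 31.9% and 29.6%. The widest in every list was the peak shared by HOXC4, HOXC5 and HOXC6, with 2184 bp in the 3A list, 1972 bp in the 7A list and 2184 bp in the WT list.

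**Figure D2:**
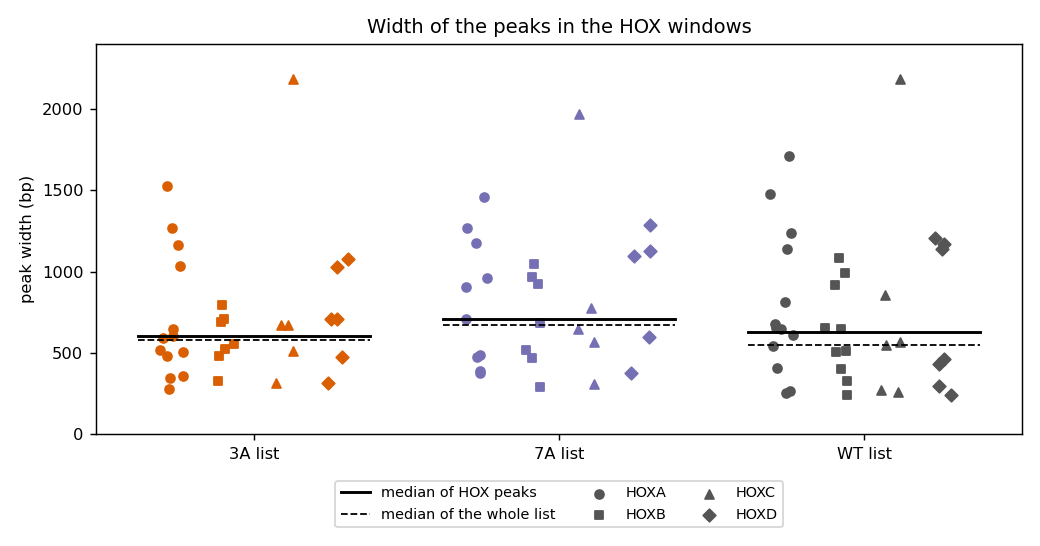
Width in bp of each peak in the HOX windows, by list and cluster; solid lines are the medians of the HOX peaks and dashed lines the medians of the whole lists (578 bp in 3A, 672 bp in 7A and 552 bp in WT). The widest HOX peak of each list (2184 bp in 3A, 1972 bp in 7A and 2184 bp in WT) is that of HOXC4, HOXC5 and HOXC6.

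Merged over the 3 lists, the HOX peaks formed 38 regions. Of these, 27 had a peak in all lists (71.1%, against 63.8% of all 36039 regions). A further 2 had one in the 3A and WT lists (5.26%, against 6.80%). The 3A list alone held 2 (5.26%, against 2.22%) and the WT list alone 7 (18.4%, against 22.04%). Every one of the 27 HOX peaks of the 7A list overlapped a WT peak and a 3A peak by at least 1 bp; the background shares were 96.6% and 94.3%. Of the 31 HOX peaks of the 3A list, 29 overlapped a WT peak (93.5%, against 95.4% of all 3A peaks) and 27 a 7A peak (87.1%, against 87.8%). Of the 36 HOX peaks of the WT list, 29 were overlapped by a 3A peak (80.6%, 95% interval 64.0 to 91.8) and 27 by a 7A peak (75.0%, 57.8 to 87.9). The background over all WT peaks was 74.0% for 3A and 69.9% for 7A, and over WT peaks in protein-coding windows 79.0% and 75.5%. WT peaks of like fold enrichment gave 68.8% and 64.1%. The intervals of the HOX shares hold all of these values. The same 27 WT HOX peaks were overlapped in both mutant lists (66.9% of all WT peaks were), and 7 in neither (22.9%).

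The 7 HOX peaks that only the WT list held had fold enrichments of 4.98 to 8.87, with a median of 6.93, and widths of 240 to 1084 bp, with a median of 296 bp. The 27 WT peaks overlapped in both mutant lists had fold enrichments of 3.13 to 37.4, with a median of 7.70, and widths of 257 to 2184 bp, with a median of 657 bp. The ranges overlap, and the weakest WT HOX peaks, such as the one of 3.13 at HOXA9, were overlapped in both mutant lists. Among all WT peaks, those in neither mutant list had a median fold enrichment of 7.54 and a median width of 323 bp. Those overlapped in both had medians of 13.4 and 744 bp, so the narrower width is not particular to HOX peaks. The 7 HOX peaks of the WT list alone lay near HOXA7, HOXB4, HOXB6 (on both sides of the 5′ end), HOXC9, HOXD12 and HOXD13. HOXA7, HOXB6 and HOXD13 also had a WT peak that was overlapped in at least 1 mutant list. Cut to equal length, the WT list held 24 HOX peaks, fewer than the 25 of the 3A list and the 27 of the 7A list, so the order of the counts depends on list length.

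The promoter sequences of 20 of the 39 HOX genes were matched by symbol in the RefSeq table (GRCh38.p14), in 26 distinct windows from 250 bases before to 50 bases after a start. They were searched on both strands for CACGTG, which reads the same on both strands, and for the non-canonical E-box CACGCG or its reverse complement CGCGTG; no matches of the motifs overlapped. CACGTG was present in 9 of the 26 HOX windows (34.6%), against 8.32% of 22012 windows of all protein-coding genes. CACGCG or CGCGTG was present in 2 (7.69%), against 14.2%. The windows are unevenly spread, with 16 from HOXA, of which 7 are starts of HOXA3, 8 from HOXD and 1 each from HOXB and HOXC, so they stand mainly for HOXA and HOXD. The median GC content was 58.0% in the HOX windows and 62.3% in all windows.

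Among the matched windows, a MAX peak lay over 6 of 26 HOX windows in the 3A list (23.1%), 5 in the 7A list (19.2%) and 7 in the WT list (26.9%), against 52.0%, 52.1% and 55.1% of all windows. Of the 7 HOXA3 starts 5 lay under no peak in any list, and HOXC13, HOXB13 and HOXD9, which had a summit close to their 5′ end, had no window here. Among windows with CACGTG, 2 of 9 HOX ones had a peak in the 3A list, 2 in the 7A list and 3 in the WT list. Of the 1831 windows with CACGTG in all protein-coding genes, 68.1% had one in the 3A list, 67.8% in the 7A list and 71.1% in the WT list. A match is a description of the letters and not a binding site, and windows of 1 gene or cluster are not independent, so these counts carry no test.

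**Figure D3:**
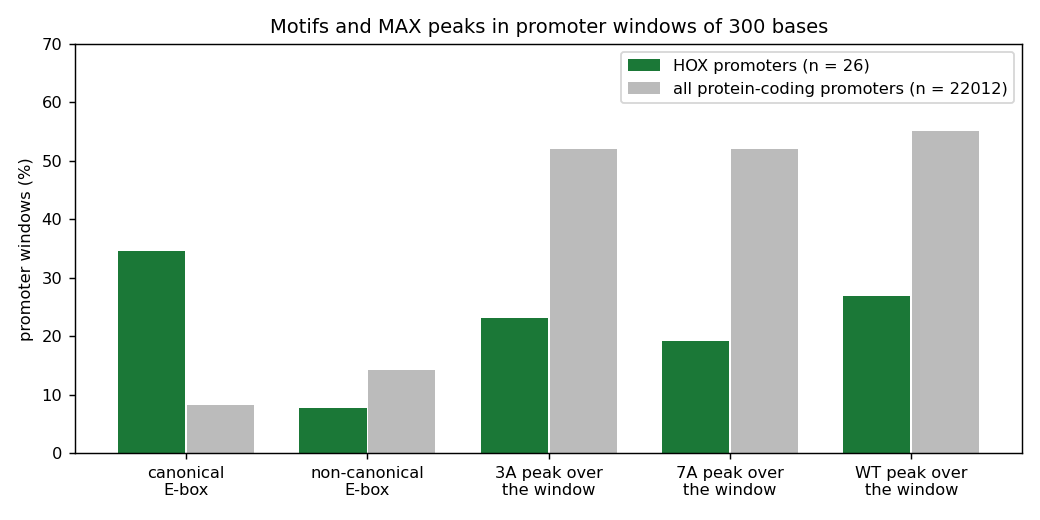
Share in percent of 26 HOX promoter windows and of 22012 windows of all protein-coding genes that hold the canonical E-box, hold the non-canonical E-box variant, or lie under a peak of the 3A, 7A or WT list. HOX windows hold the canonical E-box in 34.6% and all windows in 8.32%, while peaks cover 19.2% to 26.9% of HOX windows and 52.0% to 55.1% of all windows.

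The windows of HOXD1, HOXA4 and HOXA7 are shown because they hold CACGTG and lie under a peak in at least 1 list, those of HOXD10, HOXD11 and HOXA9 because they hold CACGTG and lie under none, and that of HOXD8 because it has a summit in every list without CACGTG. They lie on chromosome 2, plus strand, at chr2:176188418-176188717 for HOXD1, chr2:176129455-176129754 for HOXD8, chr2:176116528-176116827 for HOXD10 and chr2:176107030-176107329 for HOXD11. On chromosome 7, minus strand, they lie at chr7:27130708-27131007 for HOXA4, chr7:27156626-27156925 for HOXA7 and chr7:27165488-27165787 for HOXA9. Each is written 5′ to 3′ with CACGTG in capitals.
HOXD1: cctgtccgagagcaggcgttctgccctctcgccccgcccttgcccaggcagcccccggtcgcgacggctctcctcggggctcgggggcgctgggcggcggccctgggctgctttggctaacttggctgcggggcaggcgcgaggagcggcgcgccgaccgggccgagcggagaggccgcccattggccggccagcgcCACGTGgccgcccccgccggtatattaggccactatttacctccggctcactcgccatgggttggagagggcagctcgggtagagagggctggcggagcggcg
HOXA4: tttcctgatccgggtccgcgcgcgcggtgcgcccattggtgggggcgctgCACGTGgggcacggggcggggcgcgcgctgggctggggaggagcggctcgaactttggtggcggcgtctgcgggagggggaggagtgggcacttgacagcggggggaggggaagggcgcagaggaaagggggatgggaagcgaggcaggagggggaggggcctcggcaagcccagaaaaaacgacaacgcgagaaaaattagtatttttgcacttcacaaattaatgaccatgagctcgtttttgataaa
HOXA7: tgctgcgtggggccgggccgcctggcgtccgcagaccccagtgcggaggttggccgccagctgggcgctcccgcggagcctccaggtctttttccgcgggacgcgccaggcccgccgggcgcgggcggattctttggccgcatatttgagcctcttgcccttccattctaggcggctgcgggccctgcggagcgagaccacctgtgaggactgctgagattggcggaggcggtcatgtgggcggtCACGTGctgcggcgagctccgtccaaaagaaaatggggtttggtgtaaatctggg
HOXD10: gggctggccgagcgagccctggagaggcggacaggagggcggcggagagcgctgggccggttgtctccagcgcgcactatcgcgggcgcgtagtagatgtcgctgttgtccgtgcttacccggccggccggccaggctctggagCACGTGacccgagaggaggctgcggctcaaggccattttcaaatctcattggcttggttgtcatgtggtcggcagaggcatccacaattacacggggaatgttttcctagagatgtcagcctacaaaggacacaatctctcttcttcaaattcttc
HOXD11: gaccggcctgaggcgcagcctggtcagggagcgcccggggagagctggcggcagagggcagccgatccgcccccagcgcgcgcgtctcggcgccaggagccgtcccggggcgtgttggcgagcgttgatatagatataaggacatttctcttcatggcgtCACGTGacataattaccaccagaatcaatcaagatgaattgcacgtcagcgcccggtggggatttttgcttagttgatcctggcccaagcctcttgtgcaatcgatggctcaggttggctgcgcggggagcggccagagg
HOXA9: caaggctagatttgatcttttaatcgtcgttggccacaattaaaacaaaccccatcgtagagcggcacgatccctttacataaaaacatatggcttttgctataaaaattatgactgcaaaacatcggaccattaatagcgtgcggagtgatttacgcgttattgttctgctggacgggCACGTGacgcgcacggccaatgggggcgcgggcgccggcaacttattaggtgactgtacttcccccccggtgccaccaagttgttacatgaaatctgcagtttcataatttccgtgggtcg
HOXD8: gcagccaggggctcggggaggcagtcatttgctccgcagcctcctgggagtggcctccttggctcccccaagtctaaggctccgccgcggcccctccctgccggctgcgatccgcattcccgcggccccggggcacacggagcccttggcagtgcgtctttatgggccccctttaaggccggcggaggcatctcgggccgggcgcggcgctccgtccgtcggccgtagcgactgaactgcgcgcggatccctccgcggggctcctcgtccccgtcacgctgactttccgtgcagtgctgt

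In HOXD1 the motif begins 53 bases before the start, and the peak summit lay 31 bp from it in the 3A list, 42 bp in the 7A list and 6 bp in the WT list. In HOXA4 it begins 200 bases before the start; the summit lay 58 bp from it in the 3A list, 650 bp in the 7A list and 649 bp in the WT list, with the window under the peak in all lists. In HOXA7 it begins 5 bases before the start, and only the WT list had a peak there, with its summit 180 bp from the motif. The windows of HOXD10 and HOXD11 had their nearest peak edge 5418 to 5490 bp and 1815 to 9436 bp away over the 3 lists. For HOXA9 the nearest edge was 647 to 671 bp away. The HOXD8 window held the summit in all lists. The other windows with CACGTG, those of HOXD13, HOXD3 and 1 of the HOXA3 starts, lay under no peak.

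The HOXA cluster (chromosome 7, 107.1 kb) had a smaller largest gap between summits than the other clusters in each list. It held 13 peaks in the 3A list, 10 in the 7A list and 13 in the WT list, and 10, 9 and 9 of its 11 genes had one. That gap was 16.7 kb in the 3A list, 18.9 kb in the 7A list and 16.7 kb in the WT list. By the median gap HOXD was denser, with 7.94, 7.99 and 7.14 kb in the same lists, against 8.54, 10.6 and 8.39 kb in HOXA, and HOXC had 8.28 kb in the WT list. Its strongest region lay at the 5′ end of HOXA4, in the windows of HOXA4 and HOXA3, which in mouse shape neck vertebrae and the thymus with its neighbouring glands. HOXA4 had a fold enrichment of 24.6 in the 3A list, 30.1 in the 7A list and 35.3 in the WT list, at percentiles 88.5, 92.6 and 92.9. The peak was 1527, 1460 and 1479 bp wide.

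The other HOXA regions ranked below that of HOXA4 in every list. HOXA13, needed for digits and the urogenital tract, had fold enrichments of 8.98 in the 3A list, 11.9 in the 7A list and 19.0 in the WT list, at percentiles 35.4, 55.0 and 77.3. HOXA10, a gene of the uterus and the lumbar region, had 14.3 in the 3A list, 8.69 in the 7A list and 12.0 in the WT list, from a peak 1164, 1177 and 1710 bp wide. HOXA11, a gene of the forearm and uterus, had 7.31 in the 3A list, 7.72 in the 7A list and 6.90 in the WT list. Thus the order of the lists differed from gene to gene.

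HOXA9, a driver of some leukaemias and a regulator of blood stem cells, had 2 regions. The one between HOXA7 and HOXA9 had 8.57 in the 3A list, 6.06 in the 7A list and 10.9 in the WT list. The one within its own body was weak, with 3.91 in the 3A list, 5.51 in the 7A list and 3.13 in the WT list, percentiles 0.986, 8.33 and 0.488. HOXA5, a lung and axial gene, had a narrow peak of 4.74 in the 3A list, 9.18 in the 7A list and 3.53 in the WT list, percentiles 3.63, 37.3 and 1.23. The same peak counted for HOXA6 only in the mutant lists, since its summit lay 2497 bp from that gene in the 3A list, 2467 bp in the 7A list and 2527 bp in the WT list, on either side of the limit.

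HOXA7 had a region that differed between lists. This region, 574 bp downstream of its 5′ end, had a fold enrichment of 10.9 in the 3A list and 9.19 in the WT list and no 7A peak. The nearest 7A summit, of another region, lay 2662 bp from the gene. The missing 7A call of the gene thus rests on where the limit was set. Inside the long HOXA3 gene, 1 region had 8.29 in the 3A list and 13.2 in the WT list and none in the 7A list. A region near it had 5.35 in the 3A list alone. The remaining HOXA3 regions had 6.03 in the 3A list, 4.21 in the 7A list and 7.63 in the WT list, and 5.42 in the 3A list, 6.90 in the 7A list and 6.75 in the WT list. HOXA2, which patterns the jaw and ear region, had no peak; its nearest summit lay 3336 bp away in the 3A list, 3294 bp in the 7A list and 3273 bp in the WT list.

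**Figure D4:**
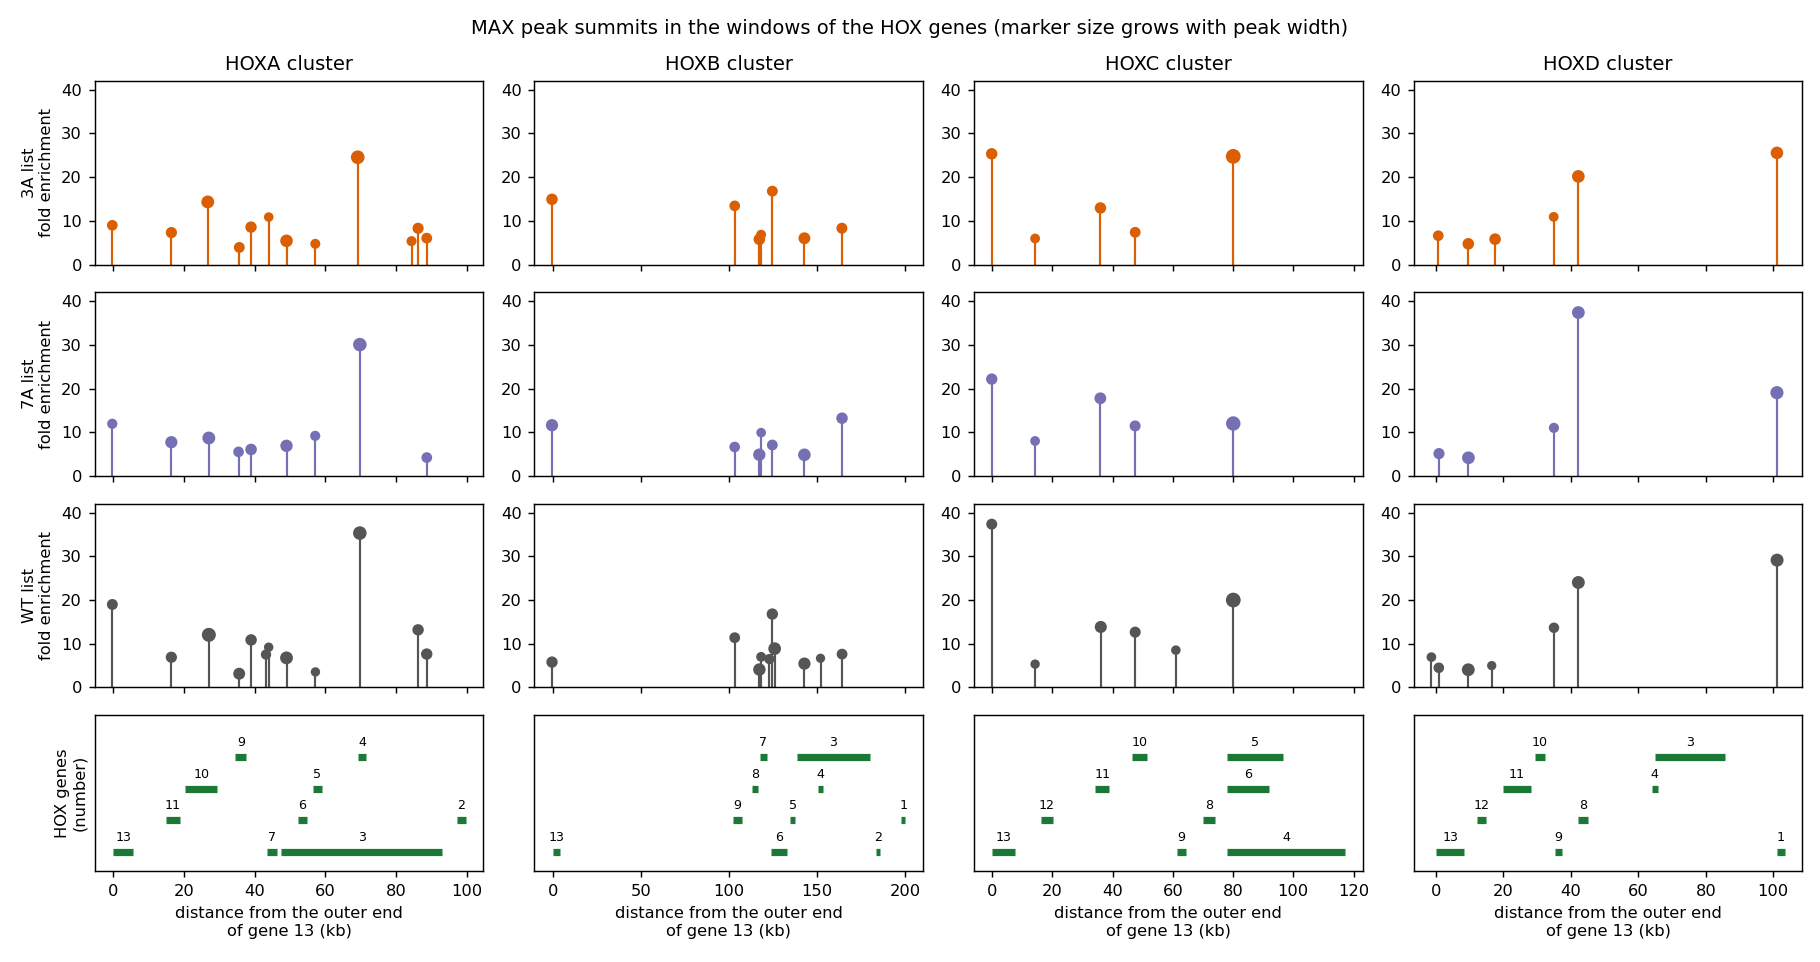
Summits of MAX peaks in the windows of the HOX genes drawn in the lowest row, for the 4 clusters, by distance in kb from the outer end of gene 13 (horizontal) and fold enrichment (vertical), in the 3A, 7A and WT lists from top to bottom; numbers in the lowest row are paralogue numbers. Most summits recur at the same place in all 3 lists, and the widest stretch without a summit in a HOX window lies between HOXB13 and HOXB9.

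The HOXB cluster (chromosome 17, 200.2 kb) had 1 peak at HOXB13 and the others between HOXB9 and HOXB3. It held 7 peaks in the 3A list, 7 in the 7A list and 10 in the WT list, and 6, 6 and 7 of its 10 genes had one. The largest gap between summits, 82.3 kb in all lists, ran from HOXB13 to a peak outside the HOX windows. HOXB1 and HOXB2, the hindbrain genes at the end of the cluster, had no peak, and over the 3 lists their nearest summits lay 22473 to 33538 bp and 19347 to 19440 bp away. HOXB5 had none either, with its nearest summit 5414 to 5436 bp away.

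HOXB13, a gene of the prostate and tail region, had a fold enrichment of 14.9 in the 3A list, 11.6 in the 7A list and 5.79 in the WT list. It stood at percentile 69.0 in the 3A list, 53.2 in the 7A list and 15.0 in the WT list, the largest gap between 3A and WT percentiles among the 27 regions present in all lists. HOXB6 had 16.8 in the 3A list, 7.08 in the 7A list and 16.8 in the WT list, at percentiles 75.1, 20.2 and 72.5, the largest gap between 7A and WT. HOXB9, which with its paralogues serves mammary gland growth in mouse, had 13.4 in the 3A list, 6.63 in the 7A list and 11.4 in the WT list. At HOXB6 and HOXB9 the 7A value was thus the lowest, and at HOXB13 the WT value.

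HOXB3 had a region with 8.30 in the 3A list, 13.2 in the 7A list and 7.61 in the WT list, and another with 6.01 in the 3A list, 4.84 in the 7A list and 5.44 in the WT list. HOXB7 and HOXB8 shared 2 regions, one with 6.84 in the 3A list, 9.91 in the 7A list and 6.98 in the WT list and one with 5.78 in the 3A list, 4.87 in the 7A list and 4.09 in the WT list. HOXB4, used to expand blood stem cells, had a peak only in the WT list, 240 bp wide with a fold enrichment of 6.66, inside the longer HOXB3 gene. The WT list also held 2 more peaks at HOXB6, with 8.87 and 6.49, the weaker one also in the window of HOXB7.

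The HOXC cluster (chromosome 12, 117.2 kb) held few peaks in the windows of its HOX genes, but these ranked higher. There were 5 in the 3A list, 5 in the 7A list and 6 in the WT list, at 7, 7 and 8 of its 9 genes, with median percentiles of 60.6, 55.3 and 61.6. So few peaks spread widely, from 11.2 to 89.3 in the 3A list, 28.1 to 85.3 in the 7A list and 11.1 to 93.7 in the WT list. These values leave out the peaks of the cluster that lay outside the HOX windows. The WT list held 4 of those, at percentiles 0.705, 13.9, 32.1 and 65.6. The 3A list held 1, at 69.1, and the 7A list 1, at 48.8. In the 7A list HOXD also held 5 peaks, with a median percentile of 49.6. HOXC13, a regulator of hair and nail keratins, had the strongest HOX peak of the WT list: 25.3 in the 3A list, 22.2 in the 7A list and 37.4 in the WT list, at percentiles 89.3, 85.3 and 93.7. Its summit lay just upstream of the 5′ end in all lists. The wide peak of HOXC4, HOXC5 and HOXC6 had 24.8 in the 3A list, 12.0 in the 7A list and 20.0 in the WT list, at percentiles 88.8, 55.3 and 79.1; the 3 genes share their outer end at 54016888 and differ in the other, so the peak, which lies near the shared end, cannot be given to one of them.

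HOXC11 had 12.9 in the 3A list, 17.8 in the 7A list and 13.8 in the WT list. HOXC10, which like HOXC11 acts at hindlimb level, had 7.37 in the 3A list, 11.4 in the 7A list and 12.6 in the WT list, at percentiles 22.7, 52.3 and 59.4. HOXC12 had a narrow peak of 5.96 in the 3A list, 8.01 in the 7A list and 5.32 in the WT list, 1834 bp upstream of its 5′ end in the WT list. HOXC9, which sets thoracic motor neuron identity in mouse, had a peak only in the WT list, 275 bp wide with a fold enrichment of 8.52. HOXC8 had none; its nearest summit lay 6114 bp away in the 3A list, 6117 bp in the 7A list and 6129 bp in the WT list.

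The HOXD cluster (chromosome 2, 103.4 kb) had strong peaks at HOXD1 and HOXD8 and weak ones towards HOXD13. It held 6 peaks in the 3A list, 5 in the 7A list and 7 in the WT list, at 6, 4 and 5 of its 9 genes. HOXD8 had a fold enrichment of 20.2 in the 3A list, 37.4 in the 7A list and 24.0 in the WT list, and at percentile 95.6 it was the strongest HOX peak of the 7A list. HOXD1 had 25.6 in the 3A list, 19.1 in the 7A list and 29.1 in the WT list, at percentiles 89.5, 79.8 and 89.4, and was the strongest HOX peak of the 3A list. Between them HOXD3 and HOXD4 had no peak in any list, and the largest gap between summits, from a peak outside the HOX windows to HOXD1, was 47.8 kb in the 3A list, 47.7 kb in the 7A list and 47.7 kb in the WT list.

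HOXD9 had 10.9 in the 3A list, 11.0 in the 7A list and 13.6 in the WT list. The 3A summit of this peak also fell in the window of HOXD10, 2483 bp from it, while the 7A summit lay 2548 bp and the WT summit 2564 bp away, so the call of HOXD10 in 3A alone rests on where the limit was set. HOXD13, a gene of the digits, had weak regions with 6.59 in the 3A list, 5.11 in the 7A list and 4.49 in the WT list, and with 4.74 in the 3A list, 4.16 in the 7A list and 4.04 in the WT list. The WT list held a further one of 6.93. HOXD11, a forearm and kidney gene, had a peak of 5.81 in the 3A list alone. HOXD12 had one of 4.98 in the WT list alone. These are different places between the 2 genes that do not overlap. The nearest summit to HOXD12 lay 2558 bp away in the 3A list and 2646 bp in the 7A list. Its call in WT alone thus also rests on where the limit was set.

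By paralogue number, genes 9 to 13 had a peak at 14 of 16 in the 3A list, 12 of 16 in the 7A list and 14 of 16 in the WT list. Genes 5 to 8 had one at 9, 8 and 8 of 11, and genes 1 to 4 at 6, 6 and 7 of 12. The share of all protein-coding genes was 67.7% in the 3A list, 66.7% in the 7A list and 70.8% in the WT list. Neighbours can share a peak, and a difference between these groups of numbers was not tested. All 4 genes of number 13 had a peak in every list, and neither gene of number 2 had one in any. Over the single genes, 25 had a peak in all 3 lists (65.7% of all protein-coding genes did) and 7 in none (28.5%). HOXB4, HOXC9 and HOXD12 had one in WT alone (2.97%). HOXD10 and HOXD11 had one in 3A alone, HOXA6 in both mutants and HOXA7 in 3A and WT, and for these patterns no background share was counted. The calls of HOXD12, HOXD10, HOXA6 and HOXA7 rest on where the limit was set.

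**Figure D5:**
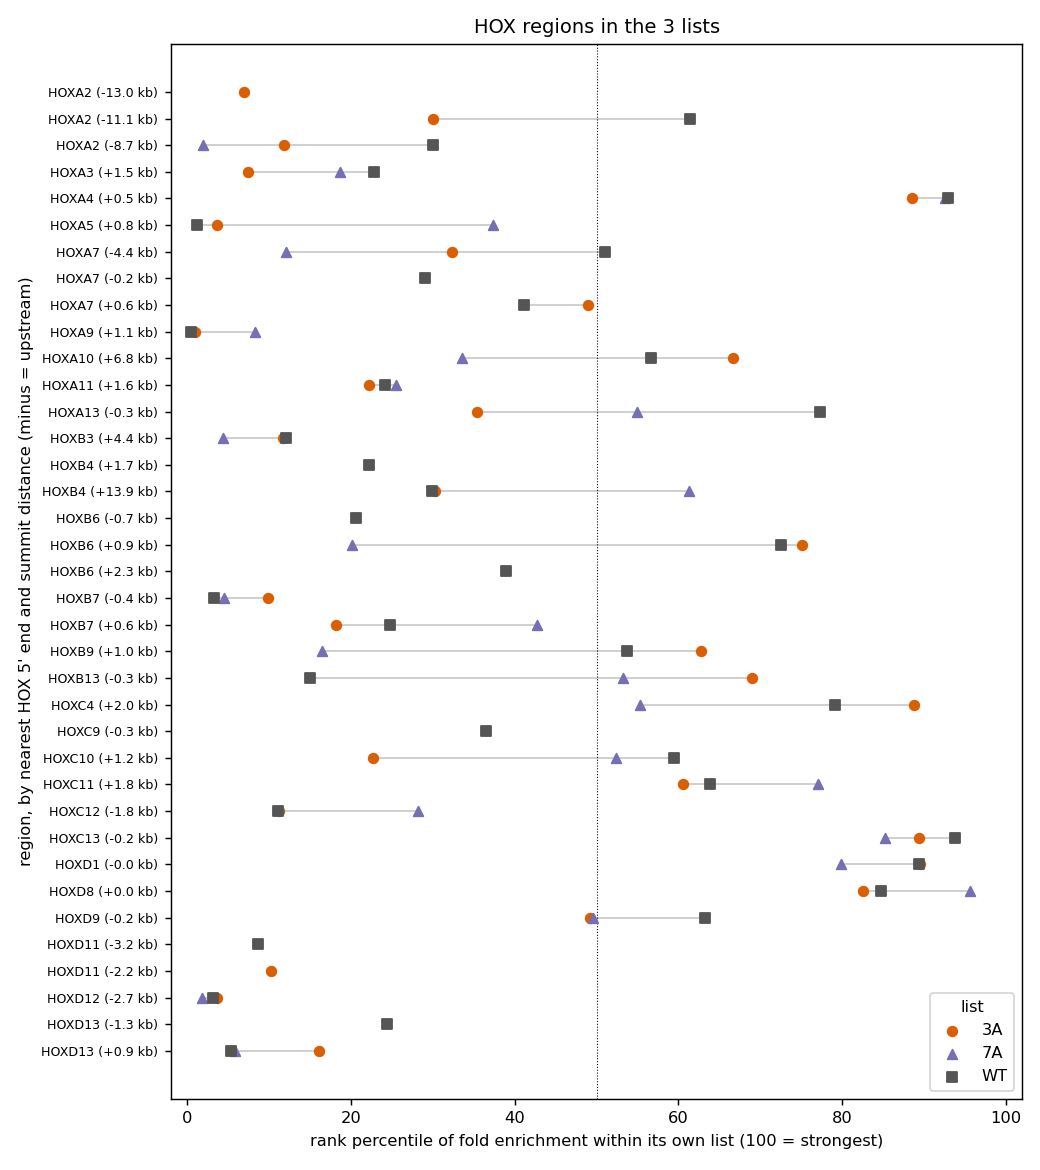
Rank percentile of fold enrichment within its own list (100 is the strongest peak) for HOX regions, labelled by the nearest HOX 5′ end and the distance of the summit from it; circles are 3A, triangles 7A and squares WT, and the dotted line is the middle of a list. HOXA4, HOXC13, HOXD1 and HOXD8 stand above percentile 79 in all 3 lists, and HOXB13 and HOXB6 spread widely.

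At the 27 regions with a peak in every list, the lists ranked the HOX sites in a similar order. Across them Spearman's rho of fold enrichment was 0.887 between 3A and WT, 0.720 between 7A and WT and 0.711 between 3A and 7A, and over all 23007 such regions it was 0.690, 0.687 and 0.734. These describe sites of the same lists, several in 1 cluster, and carry no p. The peak was narrower in 3A than in WT at 18 of the 27 and wider at 8, with a median width ratio of 0.922 (0.923 over all regions). For 7A against WT it was narrower at 15 and wider at 12, with a median ratio of 0.973 (0.970 over all regions).

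Regions were also split by their distance from the outer 5′ ends of the HOX genes. Of the 38, 17 had their summit within 1000 bp of a HOX 5′ outer end. Among the regions present in all lists, the 13 near a 5′ end had median percentiles of 62.7 in the 3A list, 49.6 in the 7A list and 63.2 in the WT list. The 14 further away had 22.4, 26.8 and 30.0. No such split of all regions is given here, so the difference is not shown to be particular to HOX genes. Inner starts were not counted: 1 HOXA3 region among the 14, at percentiles 7.49, 18.7 and 22.9, had its summit inside the window of an annotated inner start of HOXA3 in all lists. Genes without a promoter window could not be checked for inner starts. The far ones were wider, with median widths of 661.5, 841 and 838 bp, against 525, 600 and 547 bp near a 5′ end. Strand was taken from the promoter table for 20 genes and from their cluster for the other genes.

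Genes of the TALE homeodomain class, only some of which encode HOX cofactors, and genes whose products act on the clusters were counted in the same way. The background for each list of genes is the share of all protein-coding genes, 67.7% in the 3A list, 66.7% in the 7A list and 70.8% in the WT list; gene length was not matched and no difference between gene lists was tested. Of 11 TALE class genes, 10 had a peak in the 3A list (90.9%), 9 in the 7A list (81.8%) and 10 in the WT list (90.9%). PBX3, a direct HOX partner, had a fold enrichment of 81.7 in the 3A list, 86.2 in the 7A list and 36.0 in the WT list. PKNOX2 had 45.7 in the 3A list, 52.5 in the 7A list and 21.2 in the WT list. TGIF2 had 21.7 in the 3A list, 17.8 in the 7A list and 51.7 in the WT list, and TGIF1 24.7 in the 3A list, 29.3 in the 7A list and 36.5 in the WT list. PBX3 and PKNOX2 thus stood above every HOX peak in the 3A and 7A lists, and TGIF2 in the WT list. The others stood below the strongest HOX peak: TGIF1 in every list, TGIF2 in the 3A and 7A lists, and PBX3 and PKNOX2 in the WT list.

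Of 29 Polycomb genes, 25 had a peak in each list (86.2%). RYBP, a subunit of the variant complex, had 32.5 in the 3A list, 84.8 in the 7A list and 66.6 in the WT list, and AEBP2, a partner of EZH2, 136.7 in the 3A list, 69.3 in the 7A list and 55.3 in the WT list. EZH1 had 53.1 in the 3A list, 79.7 in the 7A list and 53.3 in the WT list, and PHC2 37.0 in the 3A list, 21.6 in the 7A list and 52.1 in the WT list. Of 24 Trithorax and MLL genes, 23 had a peak in the 3A list (95.8%), 21 in the 7A list (87.5%) and 23 in the WT list (95.8%). MLLT1, a reader of acetylated histones, had 81.3 in the 3A list, 193.7 in the 7A list and 58.1 in the WT list. KDM6B, which removes the Polycomb mark, had 41.9 in the 3A list, 33.3 in the 7A list and 66.4 in the WT list. KMT2D had 26.7 in the 3A list, 19.9 in the 7A list and 50.8 in the WT list, and DOT1L 20.3 in the 3A list, 21.1 in the 7A list and 38.9 in the WT list.

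Retinoic acid turns on HOX genes in order during development. Of 18 genes of its pathway, 12 had a peak in the 3A list (66.7%), 11 in the 7A list (61.1%) and 12 in the WT list (66.7%), near the background of 67.7%, 66.7% and 70.8%. CRABP2, its carrier, had 26.6 in the 3A list, 42.7 in the 7A list and 34.5 in the WT list, and RARB, a receptor, 25.0 in the 3A list, 33.7 in the 7A list and 20.8 in the WT list. RDH10 had 33.5 in the 3A list, 20.5 in the 7A list and 32.1 in the WT list, RXRA 20.9 in the 3A list, 16.2 in the 7A list and 24.0 in the WT list, and RXRG a peak of 5.82 in the WT list alone.

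Other homeobox genes are likewise genes of development. Of 58 ANTP-class genes outside the HOX clusters, 30 had a peak in the 3A list (51.7%), 30 in the 7A list (51.7%) and 40 in the WT list (69.0%). Among the HOX genes the counts were 29, 26 and 29 of 39; whether the lists differ was not tested, since each is 1 list. CDX1 and EN2 had WT peaks of 16.5 and 14.5 and none in a mutant list. NKX6-1 had 17.2 in the 3A list, 27.8 in the 7A list and 56.2 in the WT list. Of 34 PRD- and LIM-class genes, 18 had a peak in the 3A list (52.9%), 17 in the 7A list (50%) and 20 in the WT list (58.8%). PRRX2 had 22.4 in the 3A list, 26.2 in the 7A list and 59.6 in the WT list, while LHX3 and LHX5 had WT peaks of 8.44 and 7.10 alone.

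The nearest protein-coding genes outside the clusters differed from side to side. EVX1, a homeobox gene beside HOXA13, had no peak in any list, and neither had SKAP1 beside HOXB1. EVX2, beside HOXD13, had a peak only in the WT list, the one of 6.93 that also lies in the window of HOXD13. On the HOXC4 side, SMUG1 had 11.0 in the 3A list, 7.71 in the 7A list and 7.67 in the WT list, and CBX5, which encodes heterochromatin protein 1 alpha, 41.4 in the 3A list, 29.6 in the 7A list and 49.3 in the WT list. On the HOXD1 side, MTX2 had 16.5 in the 3A list, 10.1 in the 7A list and 17.5 in the WT list. SKAP2, a flanking gene of the HOXA cluster, had a peak of 7.93 in the WT list alone. The other 9 of the nearest flanking genes had a peak in every list.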

How the data were processed

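Builds hg38, hg19 and mm10 and the tools MACS2, Bowtie2, cutadapt, Picard and SAMtools are named for the MAX ChIP-Rx libraries per the submitters' processing notes. The role of each tool and build, the control, any pooling of replicates or of Dox and PBS, and use of the mouse reads for scaling are not given in the sources used here. For each MYC form the authors deposited a single list in narrowPeak layout. In the deposited lists the score is 10 times the −log10 q in over 99% of peaks (99.8% in 3A, 99.6% in 7A and 99.6% in WT). The deposited fold enrichment is a linear ratio at the summit, and the deposited −log10 q was used for the threshold. The lowest deposited −log10 q was 5.04 in 3A, 5.69 in 7A and 5.15 in WT. Positions were read as hg38, 1-based, and 0 columns belonged to other samples.

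Summits were assigned to genes of the RefSeq table (GRCh38.p14) on chromosomes 1 to 22 and X. Each peak was counted once per cluster, and peaks were compared by an overlap of 1 bp. Intervals of shares are 95% Clopper-Pearson and cover counting error alone. The list per MYC form allows no test between forms, so none was run. The assignment and overlap steps were tested on simulated data of 500 peaks and gave 100% right answers. The members, gene lists and measures were chosen with earlier results of these data known. Named are the HOX genes, up to 4 members of each related gene list with the highest WT rank and up to 2 with a WT peak and no mutant peak, and genes flanking the clusters. Some items that this rule names are left out of the text and of the map and rank figures, but count in the totals. E-boxes under peaks outside the promoter windows were not analysed here. The settings varied were the −log10 q (at least 10), lists of equal length, joining within 100 bp, windows of 1000 and 5000 bp, summits near gene ends only, short genes and other overlap rules. Ranks were also taken by −log10 q, among peaks in protein-coding windows and among shared peaks. Software was SciPy 1.17.1, NumPy 2.4.6 and pandas 2.3.3 under Python 3.11.15, with figures by matplotlib 3.10.9.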

Additional observations from a re-analysis of the deposited data

How the results depend on the processing

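Of 71 alternatives computed for 17 results, 64 were labelled unchanged and 7 moved. A label of unchanged does not mean that a count stayed equal. With lists of equal length the peaks in the HOX windows of the WT list fell from 36 to 24, and this was labelled unchanged. The median rank percentile of the WT HOX peaks was 20.12 among peaks shared with both other lists, against 30.34 in the whole list. Ranked by −log10 q, the median percentile of the HOX peaks was 41.05 in 3A, 26.53 in 7A and 37.53 in WT. By fold enrichment it was 30.23, 35.06 and 30.34, so the order of the lists depends on the value ranked, though each median was labelled unchanged. The background share of genes with a peak fell, in genes of at most 10000 bp, to 46.18% in 3A, 45.09% in 7A and 48.76% in WT. With a window of 1000 bp it was 66.0% in 3A, 64.96% in 7A and 68.91% in WT. A narrower window can only lower this background share, and why it was lower among short genes was not tested. With lists of equal length, 25 HOX genes had a peak in 3A, 26 in 7A and 23 in WT, against background shares of 65.8%, 66.7% and 64.7%, so the order of the lists is not stable to their length. No paired analysis was possible because no list was called per replicate, and for the same reason no replicate could be left out. Library depth is unknown, so the absence of a peak is no measure of absent binding.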

Other observations

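Some peaks inside the clusters lay outside the windows of the HOX genes. In the HOXB cluster, in the gap beside HOXB13, a peak in the windows of the long noncoding RNA genes LINC03057 and LINC02086 had a fold enrichment of 16.9 in the 3A list, 22.2 in the 7A list and 14.01 in the WT list, stronger than any HOXB gene of the 7A list. In the HOXC cluster, the peak at HOXC-AS2 had 14.9 in the 3A list, 10.9 in the 7A list and 14.3 in the WT list. HOTAIR, a long noncoding RNA known for its ties to Polycomb, shared the HOXC11 peak in every list, and the WT list held 2 further HOTAIR peaks, of 5.67 and 3.29. In the HOXD cluster, LOC401021 had 14.6 in the 3A list, 9.52 in the 7A list and 12.2 in the WT list.

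Of 24 long noncoding RNA genes in the clusters, 19 had a peak in the 3A list (79.2%), 20 in the 7A list (83.3%) and 21 in the WT list (87.5%), against 30.4%, 29.2% and 34.9% of all 18177 long noncoding RNA genes. Many of them share a peak counted for a HOX gene, so they are not independent of the HOX counts. Of 8 microRNA genes, only MIR7704 had one, the HOXD1 peak; MIR10A, MIR10B, MIR196A1, MIR196A2, MIR196B, MIR3185 and MIR615 had none in any list. The share of all 1911 microRNA genes with a peak was 15.2% in the 3A list, 14.1% in the 7A list and 17.2% in the WT list.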
